A study of Drosophila melanogaster with 6 samples.

Results

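The peptidoglycan recognition proteins (PGRPs) of Drosophila were followed in S2* cells, which derive from the phagocytic embryonic cell line S2, with and without the moulting steroid 20-hydroxyecdysone (20E). The genes were those whose symbol begins with PGRP- and for which the array's annotation gives a probe set (the group of short probes that measures 1 transcript) that names no other gene. Of the 13 PGRP genes in the RefSeq gene table, 7 met this rule, each with 1 probe set, out of 11982 genes named on the arrays: PGRP-LA, PGRP-LB, PGRP-LE, PGRP-LF, PGRP-SB1, PGRP-SB2 and PGRP-SC2. PGRP-SC1a and PGRP-SC1b share a probe set with each other, and PGRP-LD shares one with its neighbour Pmi, so none of these 3 could be read alone. PGRP-LC, PGRP-SA and PGRP-SD had no single-gene probe set in the annotation at hand and were not analysed here. The control cells were untreated (3 samples) and the treated cells had received 1 µM 20E for 24 h (3 samples). Both groups were S2* cells, and total RNA of each sample was hybridised to its own Affymetrix Drosophila 2.0 array. The labels give no time in culture and no solvent for the untreated cells, so effects of either cannot be told apart from those of 20E. Nothing in them tells whether replicates came from different cultures, and the p-values therefore cover no more than the variation among these arrays, some or all of which may be technical. A cell line holds no fat body or gut tissue, where several PGRPs act.

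PGRPs share a domain related to bacteriophage amidases, which binds or cuts peptidoglycan, the polymer of bacterial cell walls. Long forms (PGRP-L) include the transmembrane and intracellular receptors of the IMD pathway, the NF-kB pathway that answers peptidoglycan of the diaminopimelic acid type, while short forms (PGRP-S) are secreted. PGRP-LC is the main surface receptor, PGRP-LE senses fragments inside the cell, PGRP-LF lacks a signalling tail and restrains PGRP-LC, and PGRP-LA is thought to tune the pathway without binding peptidoglycan itself. PGRP-LB, PGRP-SC2 and PGRP-SB1 are amidases that cut peptidoglycan, and PGRP-SB2 is grouped with them by its sequence. 20E is known to make S2 cells more responsive to peptidoglycan, and the comparison asks which family members changed at the RNA level after a day of hormone.

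Of the 7 transcripts, 1 rose after 20E, and the other 6 stayed short of the threshold. The group means of PGRP-LA were 80.9 ± 8.07 normalized intensity units without and 501 ± 9.21 with hormone (SD, n = 3 per group), a 6.19-fold ratio. The other receptors and regulators, PGRP-LF and PGRP-LE, and the amidase group, PGRP-LB, PGRP-SC2, PGRP-SB1 and PGRP-SB2, had differences between −0.25 and 0.20 on the log2 scale. A transcript is said to rise or fall here where limma's Benjamini-Hochberg adjusted p, over all 18767 probe sets tested, is under 0.05. By that rule 6.58% of the 11980 genes tested changed in either direction and 3.74% rose (5.1% and 3.02% of probe sets), against 1 of the 7 PGRPs. With 7 genes, 1 call is a small number to set against that share, and nothing particular to the family as a group is read from it. The median log2 difference of the 7 was −0.05, beside −0.02 over all genes.

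**Figure D1:**
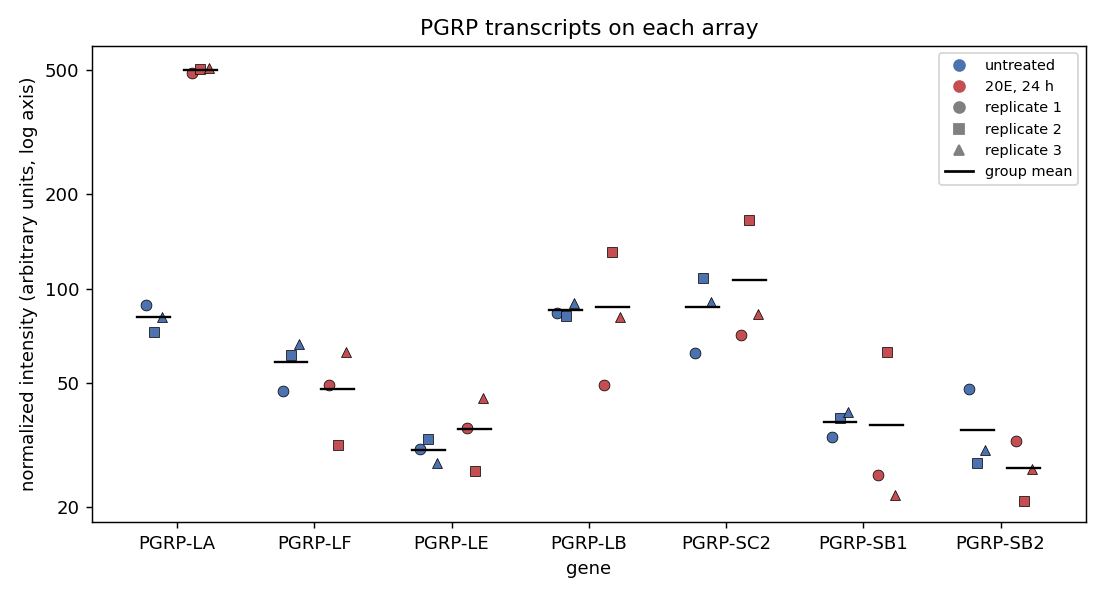
Normalized intensity (log axis, arbitrary units) of each PGRP transcript on each array, blue for untreated and red for 20E, with marker shapes for replicates and bars for group means. PGRP-LA lies between 72.7 and 88.8 on the untreated arrays and between 491 and 509.5 on the treated ones, while the groups of the other 6 overlap.

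PGRP-LA was at 88.8, 72.7 and 81.3 normalized intensity units on untreated replicates 1, 2 and 3, and at 491, 503 and 509.5 on treated replicates 1, 2 and 3. The lowest treated value was far above the highest untreated value, and the SD of the 3 treated arrays was 1.84% of their mean, against 9.97% for the untreated ones. The values as the authors deposited them, before normalization between arrays, were 74.93, 75.49 and 81.17 without hormone and 555.77, 478.45 and 579.74 with it. Their means ± SD were 77.2 ± 3.45 and 538 ± 52.9, a 6.97-fold ratio of means, so the narrow treated spread was seen only after normalization. On the log2(intensity + 16) scale used for the test, the difference was 2.42 ± 0.18 (SE, limma, adjusted p = 0.000741), with a 95% interval from 1.99 to 2.84. The offset of 16 compresses folds, so that this difference corresponds to 5.35-fold with an interval from 3.99 to 7.18. By size it ranked 200 among the 567 probe sets that rose. Its groups did not overlap, with treatment higher. That was so for 10.4% of the 18080 probe sets measured on every array (22.7% in either direction), and for none of the other 6 PGRPs in either direction. The probe set ends in _a_at, a suffix for probes that match several transcripts of the same gene, so the value does not say which PGRP-LA isoform was measured.

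PGRP-LF, which restrains IMD signalling at the receptor, lies beside PGRP-LC in the same gene cluster as PGRP-LA. It was at 47.0, 61.3 and 66.3 units on the untreated arrays and at 49.2, 31.6 and 62.5 on the treated arrays, with overlapping groups and the lowest value on treated replicate 2. Its log2 difference was −0.24 ± 0.25 (SE, limma, adjusted p = 0.717), with a 95% interval from −0.83 to 0.36. PGRP-LE, the intracellular sensor, was at 30.7, 33.0 and 27.7 units without and 35.9, 26.0 and 44.5 with 20E. Treated replicate 2 was again the lowest array, and the difference was 0.13 ± 0.21 (adjusted p = 0.829), with an interval from −0.36 to 0.63.

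Among the amidases, PGRP-LB was at 83.7, 81.6 and 89.9 units on the untreated arrays, a narrow range, and at 49.0, 131 and 81.1 on the treated arrays, both below and above it. The treated SD was 47.5% of the mean, against 5.08% without hormone. The means of 85.1 and 87.1 hardly differed (log2 difference −0.05 ± 0.31, adjusted p = 0.963), and the interval ran from −0.79 to 0.69. The probe set of PGRP-LB ends in _s_at, which marks probes that can match several transcripts, although the annotation names 1 gene.

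PGRP-SC2, an amidase best known from the gut, was at 62.2, 108 and 90.8 units on the untreated arrays and at 71.2, 166 and 82.8 on the treated arrays. Replicate 2 was the highest in both groups, and the difference of 0.20 ± 0.34 (adjusted p = 0.841) had the widest interval of the 7, from −0.60 to 1.00. The paralogous PGRP-SC1b lies next to PGRP-SC2, and PGRP-SC1a is on the same chromosome arm. How far the transcripts of these paralogues reach the probes of PGRP-SC2 was not tested.

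PGRP-SB1, a secreted amidase, was at 33.4, 38.4 and 40.2 units without hormone and at 25.2, 62.6 and 21.9 with it. Of the treated arrays 2 lay below and 1 above all untreated arrays, and the difference was −0.10 ± 0.31 (adjusted p = 0.922, interval −0.83 to 0.63). The adjacent PGRP-SB2 was at 47.7, 27.7 and 30.3 units on the untreated and 32.5, 20.95 and 26.4 on the treated arrays. These groups overlapped as well, with a difference of −0.25 ± 0.23 (adjusted p = 0.663, interval −0.80 to 0.29).

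**Figure D2:**
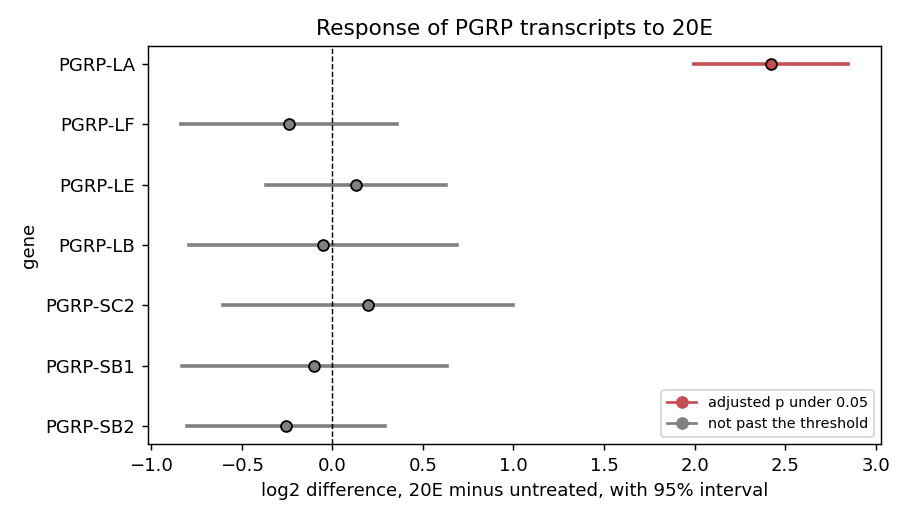
Log2 difference of 20E minus untreated with its 95% interval for each PGRP transcript, red where the adjusted p is under 0.05. The interval of PGRP-LA starts at 1.99, and those of the other 6 include 0 and end at or below 1.00.

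The 6 intervals include 0, so no direction can be given for these transcripts. As ratios of intensity + 16, they run from 0.561 at the lowest bound (PGRP-LF) to 2.00 at the highest (PGRP-SC2). The offset compresses folds, most for dim transcripts, so bounds on intensity itself would be wider and their order could differ. In data simulated with the spread of these arrays, 4 of 100 changes of 2-fold were called, so changes of that size can be missed. Far fewer probe sets were called there (67 of 18080) than in these data (957 of 18767), which makes the adjusted threshold stricter. The share missed in these data is therefore not known. The deposited table used here holds no detection calls, so whether the dimmer transcripts were above background on these arrays is not known. PGRP-LE, PGRP-SB1 and PGRP-SB2 had mean intensities under the 40th percentile of all probe sets, at 39.1 units.

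The difference of PGRP-LA exceeded that of each other member by 2.22 (PGRP-SC2) to 2.67 (PGRP-SB2) on the log2 scale. Each of these 6 contrasts, computed as the difference of both log2 values on each array, separated all treated from all untreated arrays. The exact two-sided permutation test gave p = 0.1 for each (adjusted p = 0.1 over 6 pairs), the smallest p that 3 against 3 arrays allow, so this test could not pass 0.05. The 6 contrasts share the values of PGRP-LA, the only member called in these same data, so their separation is a description and no further evidence.

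Treated replicate 2 gave the highest value of all 6 arrays for PGRP-LB, PGRP-SC2 and PGRP-SB1 and the lowest for PGRP-LE, PGRP-LF and PGRP-SB2. It was thus the highest or lowest array for all 6 members other than PGRP-LA. Over the 18080 probe sets without an empty cell, the same array was the highest or lowest for 51.7%, the largest share of any array, against 21.4% to 33.8% for the others. It also had 456 empty cells, against 9 to 146 on the other arrays, and stood apart from its group on the second principal component, at −69.9 against 21.0 and 23.7, while untreated replicate 1 stood at 47.8 against −21.0 and −1.53. All 7 PGRPs had a value on every array. Leaving out treated replicate 2 changed the sign of PGRP-SC2 (−0.13, adjusted p = 0.813) and left PGRP-LA at 2.44 (adjusted p = 0.00224). With untreated replicate 1 left out as well, PGRP-LA was at 2.54 (adjusted p = 0.0069) and no other member passed the test.

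**Figure D3:**
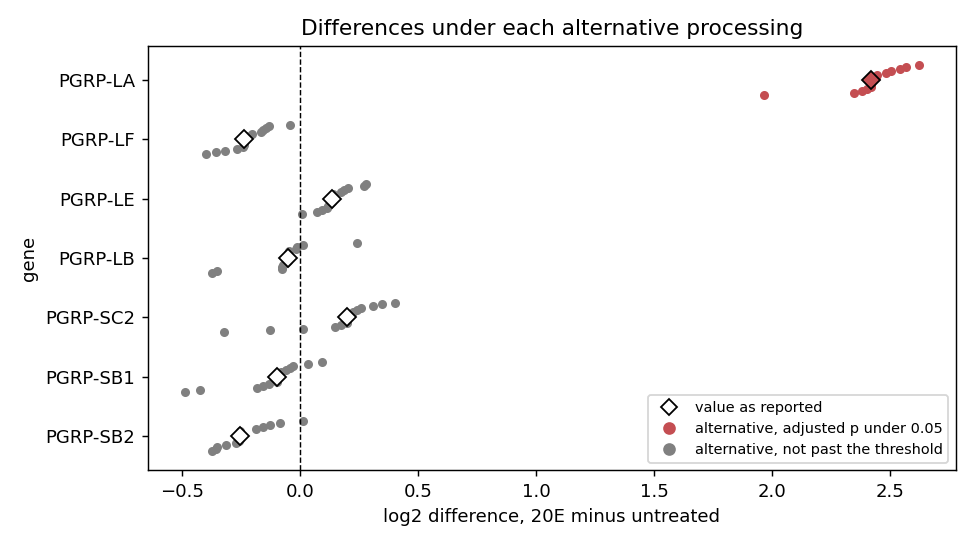
Log2 difference of each PGRP transcript as reported (diamond) and under each alternative processing or left-out array (points), red where the adjusted p is under 0.05. PGRP-LA stays between 1.97 and 2.62 and past the threshold in the 16 alternatives that tested it, and no other member passes in any.

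The neighbours of the PGRP genes on the chromosome were compared by the gene order of the Release 6 plus ISO1 MT assembly, taking on each side the nearest gene with a probe set of its own. PGRP-LA, PGRP-LC and PGRP-LF lie next to each other on chromosome arm 3L, in that order. GluRIB, a glutamate receptor gene on the other side of PGRP-LA, differed by −0.78 ± 0.48 (SE, limma, adjusted p = 0.494), and UGP, the glucose-1-phosphate uridylyltransferase gene beyond PGRP-LF, by −0.32 ± 0.24 (adjusted p = 0.577). Of 10 distinct neighbours that are not PGRPs, 1 changed, beside 6.58% of all genes in either direction, so nothing about neighbours is read from it. It was Dbp73D, a DEAD-box RNA helicase gene beside PGRP-SB1, which fell from 74.7 ± 12.4 to 17.8 ± 11.2 units (log2 difference −1.47, adjusted p = 0.0382). The genes measured on either side of PGRP-LA thus did not pass the test, and the interval of PGRP-LF ended below that of PGRP-LA.

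The 5 genes with the profile nearest to that of PGRP-LA were Dmtn, CG9270, bic, Npc2a and miple2, out of 6634 bright genes with a value on all 6 arrays. Likeness was the root mean square difference, over the arrays, of log2 values taken relative to the untreated mean, and it was 0.0394 for Dmtn and from 0.150 to 0.162 for the other 4. Dmtn, the dementin gene, rose from 153 ± 11.8 to 886 ± 39.7 units (log2 difference 2.41, adjusted p = 0.000741), and Npc2a, a sterol-binding protein gene, from 317 ± 18.9 to 1816 ± 300.0 (2.45, adjusted p = 0.00126). Differences of bic, which encodes a subunit of the nascent polypeptide-associated complex, miple2, a midkine homologue, and CG9270 ran from 2.30 to 2.56. These genes were picked for their likeness, so their differences are a description.

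**Figure D4:**
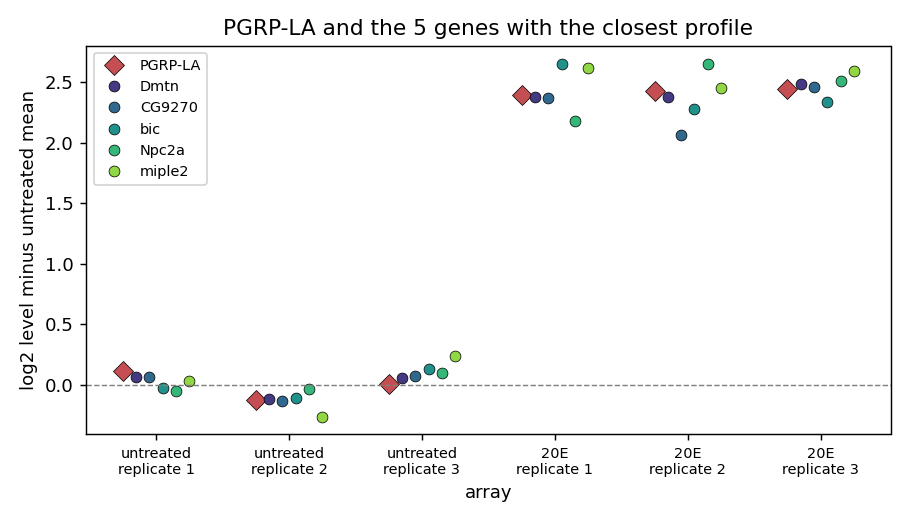
Log2 level minus the untreated mean on each of the 6 arrays for PGRP-LA (diamonds) and the 5 genes nearest to it (circles). All 6 genes are near 0 on untreated arrays and between 2.07 and 2.65 on treated arrays.

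Below the receptor, the IMD pathway runs from the adaptors imd and Fadd and the caspase Dredd through the Tak1 and IKK kinases to the NF-kB factor Rel. Of 20 measured genes of this pathway and its regulators (22 listed), none passed limma's test, with or without variance moderation, and 4 (20%) had an unadjusted p under 0.05, near the 20.6% of all genes. Rel was at 132 ± 24.8 units without and 219 ± 40.5 with hormone (SD, n = 3 per group), a log2 difference of 0.67 ± 0.23 (limma, adjusted p = 0.199). Its groups did not overlap, with treatment higher, as for casp, CYLD, ben, Usp2, Tab2, key, scny and Diap2 of this list. That was so for 10.4% of the 18080 probe sets measured on every array. Whether the list differs from that share was not tested. The adaptor gene imd differed by 0.32 ± 0.31 (adjusted p = 0.68), Fadd by 0.55 ± 0.34 (0.493), Dredd by −0.08 ± 0.22 (0.907) and the IKK gamma gene key by 0.46 ± 0.25 (0.435, n = 3 untreated and 2 treated). Diap2, a ubiquitin ligase gene, differed by 0.28 ± 0.19 (0.525), and pirk, an inhibitor that removes PGRP-LC from the surface, by 0.26 ± 0.20 (0.591). Of the 20 differences 17 were above 0, with a median of 0.40, beside 5721 of 11980 above 0 and a median of −0.02 for all genes. Without treated replicate 2, ben, a ubiquitin-conjugating enzyme gene, and CYLD, a deubiquitinase gene, passed the test (adjusted p = 0.0496 and 0.0348). Without untreated replicate 1 as well, 4 rose (CYLD, Fadd, imd and trbd) and IKKbeta fell.

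Of 10 other recognition, lysozyme and Toll-cascade genes measured (17 listed), 1 rose (10%, against 6.58% of all genes called in either direction). It was the lysozyme gene LysS, from −10.9 ± 13.8 to 127 ± 89.2 units (limma, adjusted p = 0.0238), with 2 of 3 untreated values at or below 0, and its call was lost without any 1 untreated array, treated replicate 3, or untreated replicate 1 and treated replicate 2 together, with values below 0 set to missing, with an offset of 64 and without variance moderation. Of the glucan-binding protein family, the genes GNBP2 and GNBP3 differed by −0.27 and −0.10 (limma, adjusted p = 0.55 and 0.891). Of 12 antimicrobial peptide genes measured (21 listed), 1 rose (8.33%, also near that background). The list includes drosomycin-like genes, and several of its members are known targets of IMD or Toll signalling. The gene that rose was Drs, from −4.40 ± 16.4 to 35.1 ± 3.84 units (n = 3 and 2, limma, adjusted p = 0.0357, 1 of 3 untreated values below 0). With any single array omitted, Drs no longer passed, and without treated replicate 2 a different member, the drosomycin-like gene Drsl6, passed as lower (log2 difference −1.80, adjusted p = 0.0252). The labels name no treatment with peptidoglycan and do not say that it was absent. The IMD-dependent genes DptB and AttD differed by 0.11 and 0.20 (adjusted p = 0.944 and 0.826).

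**Figure D5:**
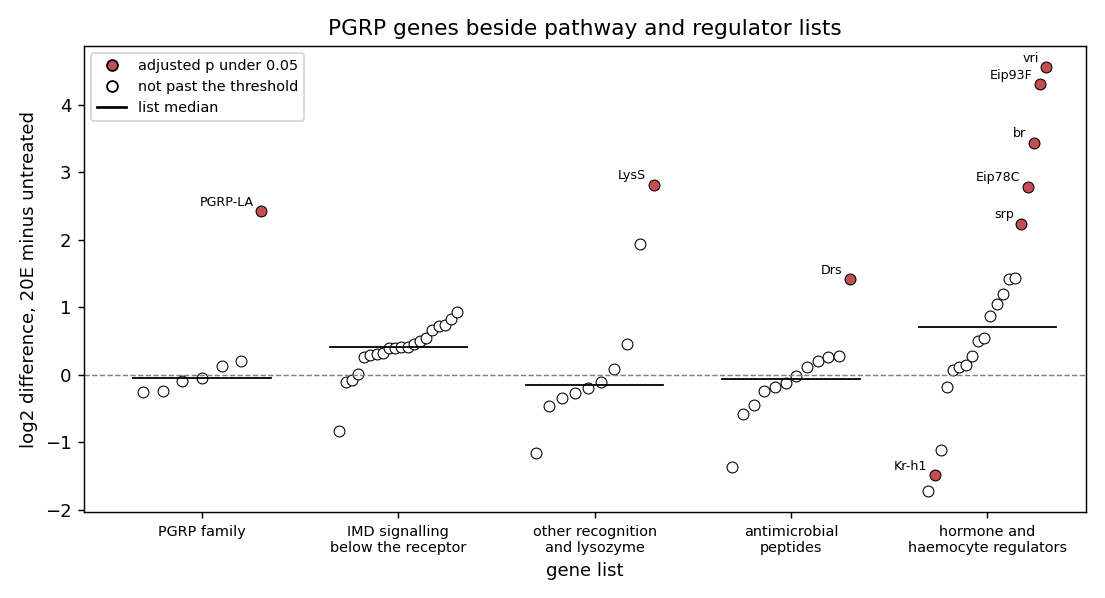
Log2 difference of 20E minus untreated for each gene of the PGRP family and of 4 other lists, filled where the adjusted p is under 0.05, with a bar at each list's median. PGRP-LA at 2.42 stands apart from the other 6 PGRPs, which lie between −0.25 and 0.20, and none of the 20 IMD genes is filled.

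Of 20 hormone-responsive and haemocyte transcription regulators measured (23 listed), 5 rose and 1 fell, against 3.74% and 2.84% of all genes. The count includes br and Eip93F, whose probe sets were the brightest of their genes only through their treated values. Eip78C, a nuclear receptor, rose from 9.12 ± 3.71 to 156 ± 15.1 units (limma, adjusted p = 0.000669), and the leucine zipper gene vri from 8.98 ± 5.32 to 564 ± 64.8 (adjusted p = 0.000771, n = 3 and 2). The brightest of 5 probe sets of br, which encodes the Broad zinc finger factors, went from −1.21 ± 1.48 to 168 ± 67.2 (adjusted p = 0.00174). Another br probe set also rose (adjusted p = 0.0437), and its remaining 3 did not pass the test. Eip93F was at or below 0 on all untreated arrays and at 339 ± 221 after hormone (adjusted p = 0.00187), with a difference of −0.15 on a second probe set. With values below 0 set to missing, its first probe set has no untreated value left and the second, at −0.17, did not pass. The transcript of Kr-h1, a juvenile hormone response gene, fell from 39.4 ± 9.71 to 3.84 ± 4.66 (adjusted p = 0.0195), with 1 treated value below 0, a call kept only without treated replicate 2 or 3 among single left-out arrays, and lost with an offset of 1, without variance moderation and with values below 0 set to missing.

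The GATA factor gene srp, a regulator of haemocyte and immune genes, was at 394, 199.7 and 332 units on the untreated arrays and at 2061, 803 and 1862 on the treated ones (log2 difference 2.23 ± 0.42, limma, adjusted p = 0.0319). Treated replicate 2 was the lowest of its group for srp, whereas PGRP-LA differed little between treated arrays after normalization. In the deposited values PGRP-LA was also lowest of its group on that array (478.45 against 555.77 and 579.74). The call for srp held without treated replicate 2 (adjusted p = 0.0111) and was lost without any other array (highest adjusted p = 0.131), with an offset of 1 and without variance moderation. The GATA gene pnr differed by 1.05 ± 0.35 (adjusted p = 0.183) and the hormone receptor genes EcR and usp by 0.87 ± 0.34 (0.247) and 0.50 ± 0.63 (0.77). EcR passed without treated replicate 2 (adjusted p = 0.0232). With untreated replicate 1 left out too, pnr (adjusted p = 0.035) and usp (0.0396) also passed and the list held 11 rises and 2 falls.

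Of 10 haemocyte markers, 3 rose and 1 fell, against 3.74% and 2.84% of all genes. Nplp2, used as a plasmatocyte marker, fell from 5167 ± 227 to 100.8 ± 5.83 units (limma, adjusted p = 2.63e-05), whereas the collagen IV genes Col4a1 (1184 ± 310.0 to 2740.5 ± 75.8) and vkg (909 ± 189.6 to 2641 ± 324) and the scavenger receptor gene crq (160.2 ± 60.9 to 1157 ± 532) rose. The summed intensity of the list, from 6965 to 8449 untreated and from 5841 to 7716 treated, thus holds large moves in opposite directions. Their part in the result of PGRP-LA was not tested. None of the 10 was at or below 0 on any array, although the phagocytic receptor gene eater was only at 12.8 and 12.02 units (untreated and treated means) and He at 9.60 and 11.9. None of the neuron, muscle, salivary gland or gut markers measured (4, 3, 5 and 3 genes) passed limma's test, and 1 of these 15, the salivary gland gene Sgs8, had an unadjusted p under 0.05 (65.8 units untreated and 26.6 treated, adjusted p = 0.0569). Summed crystal cell and lamellocyte markers ranged from 258 to 631 untreated and from 334 to 487 treated, with 1 of 5 risen. The gene that rose was PPO3 (26.4 ± 9.02 to 131 ± 27.8 units, limma, adjusted p = 0.00978). PPO2, with the highest means of that list, was at 369 ± 174 untreated and 213 ± 92.2 treated (adjusted p = 0.509), so this sum also holds opposite moves. Fat body markers summed to between 173 and 203 untreated and between 594 and 941 treated. That came mostly from 1 of 4 genes, Fbp2 (27.7 ± 13.9 to 561 ± 160, limma, adjusted p = 0.00126). Fbp1 was lower after hormone (42.3 ± 15.2 to 16.6 ± 1.97, limma, adjusted p = 0.135), with groups that did not overlap. Groups did not overlap, in either direction, for 22.7% of the probe sets measured on every array. Lsp2 and Yp1 differed by 0.17 and 0.48 (adjusted p = 0.793 and 0.39). The part of Fbp2 in the result of PGRP-LA was not tested. Fewer cells with a transcript and less of it per cell cannot be told apart in these bulk samples.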

How the data were processed

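RNA of 6 samples was measured, and groups and replicate numbers came from the sample titles. The values deposited by the authors are linear intensities, 1 for each of 18769 probe sets on an array. How probes were summarised, corrected for background and scaled is not given in the sources used here. Deposited medians ran from 43.2 to 56.4, between 1.99% and 5.29% of values were below 0, and 9 to 456 cells per array were empty. Intensities were quantile normalized between arrays, which would remove a shift common to most transcripts. Values below 0 were set to 0 and log2(intensity + 16) was fitted with limma 3.58.1 in R 4.3.3 (lmFit, eBayes, two-sided, 3 arrays per group, Benjamini-Hochberg over 18767 probe sets, threshold 0.05). Printed intensities are normalized values before that floor, with means ± SD. SE is moderated. The number of arrays limits the precision. A gene was represented by its probe set with the highest mean intensity over all 6 arrays. Treated values thus entered the choice, which can favour probe sets that rise, and the shares over all genes rest on the same choice.

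Gene names came from a platform annotation, updated by gene number through RefSeq's table of Release 6 plus ISO1 MT. A single gene was named for 13647 probe sets, several for 402 and none for 4720. The members, the gene lists, the markers and the naming rule (every PGRP, every called list gene, 12 preset genes, the 5 nearest to PGRP-LA, chromosomal neighbours) were chosen with earlier results of these data known. Other genes named from the lists, such as CYLD, GNBP2 and DptB, were chosen after their values were seen. Tested on simulated data (18080 probe sets), the fit called 4 of 100 that changed 2-fold and 61 of 100 that changed 4-fold, with 2 of 67 calls false. Far fewer probe sets were called there than in these data, so neither the shares found nor the share of false calls carries over. Alternatives were offsets of 1 and 64, 2 other normalizations, a filter at the 40th percentile, 2 variance models, the replicate block, missing in place of 0 for values below 0, no probe sets ending in _s_at, _x_at or _a_at, and each array left out. Leaving out untreated replicate 1 and treated replicate 2 together was added after seeing the data.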

Additional observations from a re-analysis of the deposited data

How the results depend on the processing

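PGRP-LA kept its rise in all 16 alternatives that tested it (log2 difference 1.97 with an offset of 64 to 2.62 with an offset of 1, highest adjusted p 0.0111; 2.35 to 2.50 on leaving out 1 array). Without probe sets ending in _s_at, _x_at or _a_at, PGRP-LA and PGRP-LB have no probe set left and 0 PGRPs were called. In the other alternatives, left-out arrays included, 1 PGRP was called. Some members that never passed changed sign. PGRP-LB was at 0.0099 without normalization and ran from −0.355 to 0.239 on leaving out 1 array, PGRP-SB1 ran from −0.427 to 0.0904 and PGRP-SC2 from −0.128 to 0.40. Without untreated replicate 1 and treated replicate 2, PGRP-SC2 was at −0.325 and PGRP-SB2 at 0.0121. The cause was not tested.

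Probe sets called numbered 957 as reported (567 higher, 390 lower), 567 with an offset of 1, 397 without variance moderation, 629 without the suffixed probe sets (fewer were tested), 2187 without both arrays and 326 to 1174 without 1 array. Without normalization the split was 723 higher to 307 lower. Without 1 array, calls ranged from 0 to 2 for IMD genes, 0 to 2 for recognition and lysozyme genes, 0 to 1 for antimicrobial peptides (Drsl6 as lower, not Drs) and 4 to 10 for the regulators. Without both arrays, IMD genes had 5 and the regulators 13, and the antimicrobial call was Drsl6 as lower. The regulators had 4 with an offset of 1 or without variance moderation, where srp and Kr-h1 were lost. Without the suffixed probe sets the regulators had 1. Recognition and lysozyme calls were 0 with an offset of 64 or without variance moderation and 2 without normalization, with the filter, with the trend model or with the replicate block, the second being spz. The 1 call with values below 0 missing, and without both arrays, was spz and not LysS. Antimicrobial peptide calls were 0 with either offset, median centring, the filter, no moderation, the replicate block, or values below 0 missing. Deviations of same-numbered arrays correlated at 0.24, 0.37 and −0.02, so the numbers were not taken as pairs. With the replicate block 954 probe sets were called and PGRP-LA had an adjusted p of 0.00566.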
